A study of Mus musculus with 9 samples.

Results

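The monocytes described here came from adult mice and were kept for 4 h either with a control buffer or with adult platelets, then washed before their RNA was taken. The comparison covers every gene symbol of the 3 libraries labelled control and the 3 labelled as incubated with adult platelets, 6 of the 9 libraries of the study. The other 3 libraries are monocytes incubated with P7 platelets, as the labels call them. Of 55367 gene symbols counted, 13707 had enough counts to be tested. Strain, monocyte subset, the way of isolation, the number of platelets per monocyte and whether replicates came from separate animals were not stated in the labels. P-values therefore measure the spread between these samples only, which may be technical. The libraries are bulk preparations in which platelets still attached to or taken up by monocytes can contribute RNA. In such samples more cells of a kind and more RNA per cell cannot be told apart.

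Monocytes are circulating phagocytes that enter tissues and can become macrophages. Platelets are small fragments shed by megakaryocytes. They have no nucleus, but they carry messenger RNA left from the megakaryocyte, with high levels of transcripts for granule chemokines, adhesion receptors and cytoskeletal proteins. Activated platelets bind monocytes, chiefly through P-selectin and its ligand, and release mediators such as ADP, TGF-beta and the chemokines of the alpha granules. A transcript that is higher in monocytes after contact with platelets can therefore be platelet RNA that came along, or RNA of the monocyte itself. The level in control monocytes, which had no added platelets, gives one way to set these apart: a transcript nearly missing from control could be carried or newly made, whereas one already present there did not need added platelets to be found, though it may come from other cells in the preparation.

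Levels are given as normalised CPM, counts scaled to a common library size with a factor for each library, in the order of replicates 1, 2 and 3. Total counts ranged from 30974956 to 37065564 per library. Log2 fold changes of adult platelets over control are given ± SE from edgeR's quasi-likelihood test, and a call means that the p adjusted by Benjamini-Hochberg over all genes tested was under 0.05. By that rule 26.4% of all genes tested were called, 14.3% higher and 12% lower, and in 42.7% the libraries of both groups did not overlap. The 30 monocyte identity genes all passed the filter, and their summed level was 41936 to 43741 CPM of the library total in control and 41536 to 46806 with adult platelets. Igkc, an immunoglobulin light chain transcript of B lineage cells, stood apart within both groups, at 608, 121 and 138 CPM in control and 744, 121 and 389 with adult platelets, so that control replicate 1 was high and adult platelet replicate 2 low. The closing section gives the calls when high Igkc enters the model.

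Genes were placed in 3 classes by the mean of the control libraries, near-absent (under 0.5 CPM), low (0.5 to under 5 CPM) and expressed (5 CPM or more). The expressed class held 9277 genes, all tested, and 30.7% of them were called, 1467 higher and 1385 lower. Most of these changes were small: 82.2% of the higher and 79.1% of the lower calls were under 1.5-fold, and at least 2-fold changes numbered 95 higher and 62 lower. The low class held 2929 tested genes, with 218 called higher (127 at least 2-fold) and 254 lower (70 at least 2-fold). Of 43160 near-absent symbols 1501 passed the filter, and 281 were called higher (271 at least 2-fold) and 12 lower. A near-absent gene that passed through its level with platelets had to differ, so its class count is a description only. Over all genes tested 493 (3.6%) rose and 143 (1.04%) fell at least 2-fold, and 95 of these rises and 62 of these falls were in genes that control monocytes expressed. Near-absent genes held 0.0966% ± 0.0031 (SD, n = 3) of all counts in control and 0.342% ± 0.0770 (SD, n = 3) with adult platelets. The count of calls depended on the control libraries, with 2031 genes called without control replicate 2 and 2207 without control replicate 3, against 3617. With upper-quartile scaling, which moved the median of all genes by -0.03, the split was 1620 higher and 1945 lower over all genes and 1146 higher and 1652 lower among expressed genes.

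**Figure D1:**
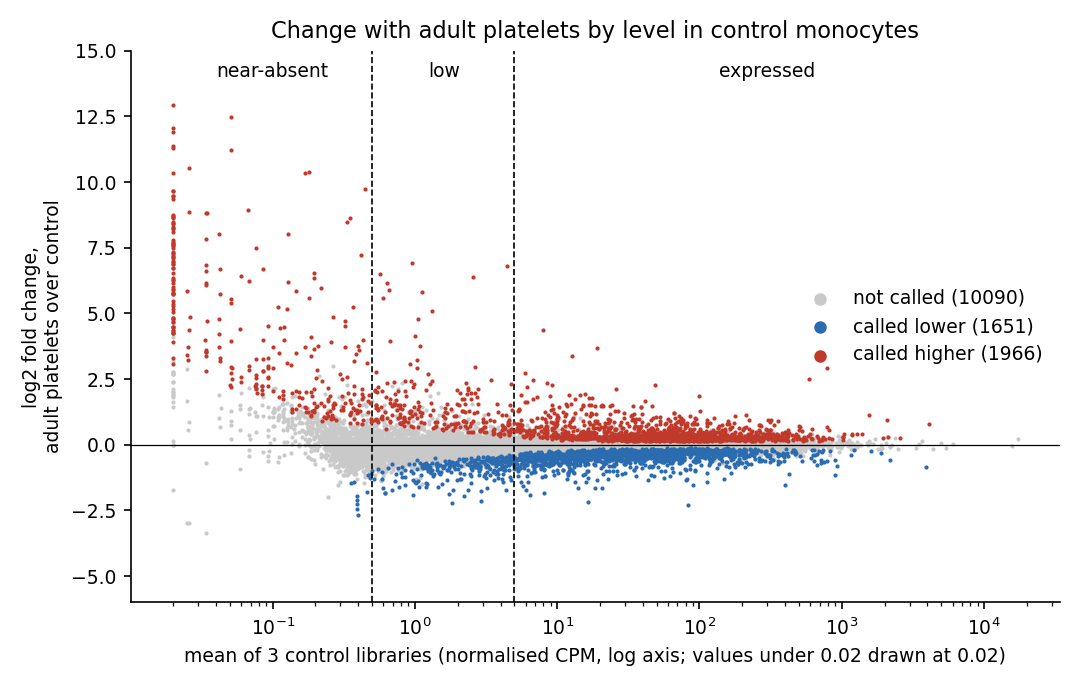
Log2 fold change of adult platelets over control (vertical) against the mean of the 3 control libraries in normalised CPM (horizontal, log axis) for 13707 genes, with dashed lines at 0.5 and 5 CPM between the classes. Red points were called higher (1966) and blue points lower (1651); points with changes above about 4 on the log2 scale lie mostly at the left, among near-absent and low genes.

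The limits of the classes cut through continuous values. Just under 0.5 CPM lay Ctla2a, a cathepsin inhibitor homologue, with a control mean of 0.449 CPM, and Gmpr, guanosine monophosphate reductase, with 0.46. Just above lay Spint1 (0.525), a protease inhibitor, and Prxl2a (0.527). At the upper limit Cmklr1, the chemerin receptor (4.72 CPM), and Rida (4.8) were counted as low, and Fdps, farnesyl diphosphate synthase (5.18), and Cldn15 (5.19) as expressed.

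Transcripts of platelet surface receptors made up one group of the rises. Of 28 tested members of that list 20 rose and none fell, against 14.3% higher and 12% lower over all genes tested. Of the 20, 10 were near-absent in control, a class whose counts are a description only. Clec1b, the podoplanin receptor CLEC-2, was at 0.275, 0.525 and 0.456 CPM in control and 69.99, 40.8 and 76 with adult platelets (7.21 ± 0.33, adjusted p = 2.61e-06). Every adult platelet library was far above every control library, and replicate 2 was the lowest of the 3. Gp6, the collagen receptor that signals through the Fc receptor gamma chain, had no count in control and 14, 10.9 and 17.9 CPM with adult platelets, which makes it at least 557-fold higher against a floor of 3 counts over the group. The transcripts of the von Willebrand factor receptor were uneven. Gp9 reached 54.2, 26.3 and 50.3 CPM, Gp5 16.6, 8.9 and 17.4 and Gp1ba 8.56, 6.67 and 10.3. Gp1bb, the partner chain of Gp1ba, had no control count and only 0.218, 0.114 and 0.148 CPM. Per kilobase of exon, the mean level with adult platelets was 49.5 CPM for Gp9, 6.51 for Gp5, 3.13 for Gp1ba and 0.0768 for Gp1bb. The annotation and strand option of the counting are not known, and their part in the low Gp1bb count was not tested.

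Receptors for soluble agonists followed no single pattern. P2ry12, the ADP receptor that clopidogrel blocks, was at 0.6, 0.367 and 0.734 CPM in control and 42.2, 45.1 and 68.9 with adult platelets (6.51 ± 0.29, adjusted p = 2.28e-06). Its replicates 1 and 2 were close and replicate 3 was higher, unlike Clec1b. P2ry1, the other platelet ADP receptor, was already at 18.5, 15.2 and 13 CPM in control and at 13.6, 15.5 and 20.8 with adult platelets, overlapping and not called (adjusted p = 0.725). F2rl2, the thrombin receptor PAR3 of mouse platelets, went from 0.1, 0.236 and 0.101 to 9.25, 6.35 and 10.1 CPM. F2rl3, which encodes the thrombin receptor PAR4, stayed near-absent, at 0.187, 0.0572 and 0.237 CPM with adult platelets, and Tbxa2r, the thromboxane receptor, at 0.156, 0.286 and 0.474; neither was called (adjusted p = 0.866 and 0.274). Selp, the P-selectin transcript, was at 4.23, 3.96 and 3.22 CPM in control and 2.62, 4.23 and 7.12 with adult platelets, and the ranges overlapped.

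Genes on the granule cargo list split by the level in control. Of 24 tested genes 15 rose and 1 fell, against 14.3% higher and 12% lower over all genes tested. Among the 7 cargo genes that control monocytes expressed 3 rose and 1 fell. Nrgn, neurogranin, an abundant platelet transcript, was at 0.025, 0.0525 and 0.076 CPM in control and 339.6, 191 and 415 with adult platelets (12.49 ± 0.48, adjusted p = 1.06e-06). Ppbp, the precursor of the platelet basic protein family of chemokines, was at 0.175, 0.0525 and 0.279 and 235, 187 and 250.4 CPM. Pf4, the chemokine platelet factor 4, was at 0.45, 0.367 and 0.228 and 151, 98.9 and 166. In each of these 3 the libraries of both groups were far apart and adult platelet replicate 2 was the lowest. Per kilobase of exon, mean levels with adult platelets were 217 CPM for Nrgn, 207 for Ppbp, 192 for Pf4 and 35.3 for Clu, the chaperone clusterin. Vwf, von Willebrand factor, was low in control (1.23, 1.36 and 1.37 CPM) and reached 49.9, 29 and 56.5. Mmrn1, multimerin 1, which binds factor V in alpha granules, reached 16.3, 13.4 and 22.1 CPM.

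Other genes of the cargo list were expressed in control monocytes, and several of them did not pass or fell. Thbs1, thrombospondin 1, was at 4005, 5563 and 6543 CPM in control and 3516, 3879 and 7461 with adult platelets (-0.12 ± 0.27), and F13a1, the factor XIII A chain, was at 3504, 3526 and 3430.5 and 3983, 3716 and 3052 CPM (0.04 ± 0.09). The ranges of both groups overlapped for both genes. F5, coagulation factor V, fell, from 550.4, 833 and 859 to 434, 577 and 425 CPM (-0.64 ± 0.19, adjusted p = 0.0362), with adult platelet replicate 2 above control replicate 1. F5 did not pass with only the 6 libraries compared (adjusted p = 0.0508), nor with adult platelet replicate 1 or 3, control replicate 2 or 3, or P7 platelet replicate 2 left out (adjusted p = 0.0533 to 0.124). The platelet-derived growth factor transcripts of the cargo list followed yet another order among replicates, which not every growth factor on that list shared. Pdgfb, the platelet-derived growth factor B chain, went from 1.58, 2.68 and 3.93 to 6.69, 14.6 and 7.65 CPM (1.83 ± 0.41, adjusted p = 0.0117), and adult platelet replicate 2 was the highest. Pdgfa, the A chain, rose from 0.575, 0.866 and 0.709 to 3.11, 4.43 and 3.65 CPM, and here too replicate 2 was the highest.

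Cytoskeletal and signalling transcripts of platelets rose in 24 of 33 tested members, and none fell. Over all genes tested 14.3% were called higher and 12% lower. All 17 members that were near-absent or low in control were called, and 7 of 16 that control monocytes expressed. Of the 17, 13 were near-absent, a class whose counts are a description only, so the 2 shares do not test a difference. Gng11, a G protein gamma subunit, was at 0.25, 0.262 and 0.0253 CPM in control and 269, 178 and 292 with adult platelets (10.40 ± 0.38, adjusted p = 9.89e-07). With 268 CPM per kilobase of exon Gng11 had a higher mean level than Nrgn (217) or Ctla2a (184). Myl9, a myosin regulatory light chain, reached 158, 81.8 and 149.9 CPM, and Tubb1, the beta tubulin of the platelet marginal band, 35.5, 25.4 and 40.3. Alox12, platelet 12-lipoxygenase, had 2 control counts in all and reached 96.7, 59.9 and 107 CPM. Among members that control monocytes expressed, Tln1, the integrin activator talin, was at 1260.2, 1361 and 1399.5 and 1313, 1396 and 1304 CPM (-0.00 ± 0.06), and Fermt3, kindlin-3, rose from 348, 336 and 338 to 463, 401 and 396 CPM (0.30 ± 0.06, adjusted p = 0.00899).

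**Figure D2:**
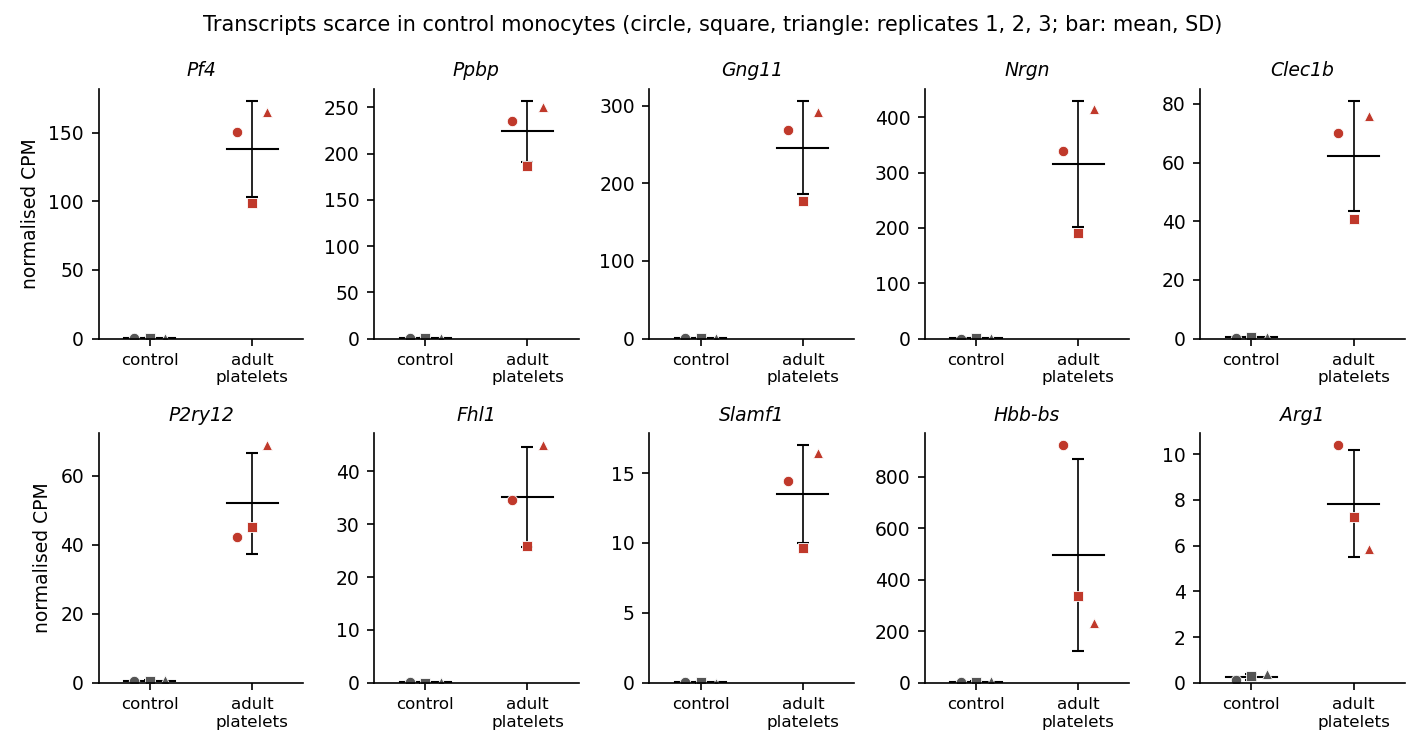
Normalised CPM (vertical, linear from 0) of 10 transcripts that were near-absent or low in control, in the 3 control (grey) and 3 adult platelet (red) libraries; symbols mark replicates and bars the mean with SD. For Pf4, Gng11, Nrgn, Clec1b, Fhl1 and Slamf1 the square (replicate 2) is the lowest adult platelet library, while Hbb-bs and Arg1 are highest in replicate 1.

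Most near-absent genes called higher were on none of the blood cell lists. Of the 281, 30 were on the platelet lists, 4 on the erythroid list, 1 on another list and 246 on none, of which 77 carry predicted, clone or Riken names. Most of the 246 were scarce: 49 reached a mean of 2 CPM or more with adult platelets. The most abundant was Fhl1, a LIM domain protein of muscle and cytoskeleton, at 0.125, 0 and 0.076 CPM in control and 34.6, 25.9 and 45 with adult platelets (8.94 ± 0.39, adjusted p = 2.21e-06). Slamf1, the self-ligand receptor CD150, which marks haematopoietic stem cells and is found on platelets, was at 0.025, 0.0525 and 0 and 14.4, 9.61 and 16.4 CPM. Its fold, with 3 control counts in all, was 526 (95% counting interval 180 to 2556). Sytl4, granuphilin, a Rab effector of dense granule release, was at 0, 0 and 0.0507 and 9.47, 6.75 and 10.6 CPM. Cavin2, a caveolar coat protein also called the serum deprivation response protein, was at 0.1, 0.0262 and 0 and 11.1, 9.27 and 15.6. In Fhl1, Slamf1, Sytl4 and Cavin2 the groups did not overlap and adult platelet replicate 2 was the lowest. Peg10, an imprinted retrotransposon-derived gene, went from 0.45, 0.367 and 0.279 to 12, 10.9 and 19.5 CPM, Ccdc92 from 0.325, 0.21 and 0.127 to 15.4, 9.53 and 16.8 and Samd14 from 0.15, 0.184 and 0.0507 to 12, 5.72 and 11.4. Gchfr, the feedback regulator of the first enzyme of tetrahydrobiopterin synthesis, had 1 control count in all and reached 10.2, 4.55 and 11.5 CPM. Also high in this group were Tmem40 (9.53, 5.78 and 10.1 CPM) and Lrrn3 (7.82, 6.75 and 10.3).

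Arg1, arginase 1, an enzyme of alternatively activated macrophages that splits arginine into ornithine and urea, was in the same class but differed in its order of replicates. It was at 0.125, 0.289 and 0.38 CPM in control and 10.4, 7.27 and 5.84 with adult platelets (4.87 ± 0.37, adjusted p = 3.85e-05). Here replicate 3, which held the most platelet transcripts, was the lowest adult platelet library. Summed erythroid transcripts not expressed in control had the same order as Arg1, at 1769, 650 and 513 CPM. The source of the Arg1 transcripts was not tested. Ltbp1, which binds latent TGF-beta, was at 0.15, 0.367 and 0.253 and 3.99, 3.6 and 4.21 CPM (3.92 ± 0.25), with replicate 2 the lowest and a ratio of replicate 2 to the mean of the others of 0.88.

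The 3 adult platelet libraries held unequal amounts of platelet transcripts. Summed over the platelet-list genes not expressed in control, normalised CPM were 30.3 to 32.5 in the control libraries and 2446, 1581 and 2708 with adult platelets. Replicate 2 thus stood at 0.614 of the mean of replicates 1 and 3, a ratio examined for other genes after the values had been seen. Among genes called higher with a mean of at least 2 CPM, 24 near-absent genes were on the platelet lists, with replicate 2 lowest in all 24 and a median ratio of 0.603. For the 49 near-absent genes on none of the blood cell lists replicate 2 was lowest in 46, with a median ratio of 0.639. For the 1467 expressed genes called higher replicate 2 was lowest in 31.4%, close to 32.6% of all expressed genes, and the median ratio was 0.997. The 95 expressed genes that rose at least 2-fold lay between, with replicate 2 lowest in 54 and a ratio under 0.75 in 36 (37.9%), against 2.26% of all expressed genes. All members of a library share its preparation and scaling. Igkc had a ratio of 0.214, and in control, where replicate 1 was the high library, the platelet sum of replicate 1 was 1.05 times the mean of the others while Igkc was 4.69 times as high. The part of differences in preparation other than the amount of platelet RNA in these ratios was not tested.

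**Figure D3:**
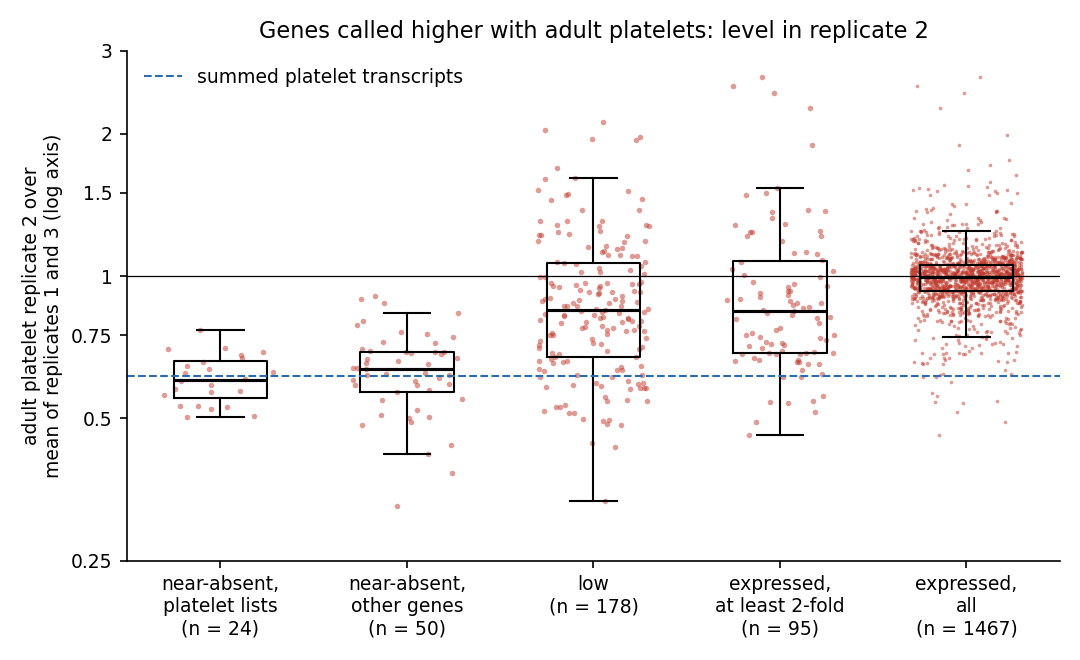
Level in adult platelet replicate 2 divided by the mean of replicates 1 and 3 (vertical, log axis) for genes called higher with a mean of at least 2 CPM, by class of control level; points are genes, boxes show the quartiles and whiskers extend up to 1.5 times the box height. Near-absent genes lie around the dashed line of the summed platelet transcripts (0.614), and the 1467 expressed genes around 1, with a median of 0.997. Near-absent genes on the platelet lists are themselves part of that sum.

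Red cell transcripts were also higher, in another order of replicates. Hbb-bs, an adult beta globin gene, was at 4.13, 3.75 and 5.34 CPM in control and 923, 338 and 231 with adult platelets (6.82 ± 0.55, adjusted p = 5.50e-05). Alas2, the erythroid enzyme that starts haem synthesis, was at 0.6, 0.63 and 0.684 and 90.5, 27 and 20.6 CPM. Replicate 1 was the highest and replicate 3 the lowest for both, whereas the platelet sum was highest in replicate 3. In all, 11 of 25 tested erythroid genes rose and none fell, against 14.3% higher and 12% lower over all genes tested. The summed level of the list was 83.9 to 85.6 CPM of the library total in control and 604 to 1922 with adult platelets. Erythroid genes not expressed in control held 0.101% of counts with adult platelets, and 0.0600% without replicate 1. Copies of the globin genes share reads, so the split between Hbb-bs and its twin is uncertain. Whether red cells or reticulocytes in the platelet preparation gave these counts was not tested.

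Megakaryocyte transcription factors act in the nucleated parent cell. Of 16 tested, 2 rose and 4 fell, against 14.3% higher and 12% lower over all genes tested. Gata1, the erythroid and megakaryocyte GATA factor, was at 0.925, 0.551 and 0.532 CPM in control and 2.18, 1.34 and 3.26 with adult platelets (1.75 ± 0.33, adjusted p = 0.00536), and Gfi1b, a repressor of both lineages, at 1.93, 2.15 and 1.72 and 4.95, 3.98 and 3.38. The expressed members that fell included Lmo2, an adaptor of GATA complexes, from 62.1, 57.2 and 58.7 to 42.2, 43.7 and 39.1 CPM (-0.51 ± 0.07), and Mef2c from 63, 77.6 and 77 to 44.2, 49.9 and 46.6 (-0.63 ± 0.11).

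Few markers of other blood cells were called, against 26.4% of all genes tested. No tested gene was called among 16 B and plasma cell transcripts, 4 NK cell transcripts, 12 of mast cells, basophils and eosinophils, and 10 of dendritic cells. Their median log2 fold changes were 0.51, -0.12, 0.23 and -0.01, against -0.002 over all genes tested. The medians were 0.37 for neutrophil, 0.99 for T cell and 0.07 for endothelial and stromal transcripts. In lists this small a lack of calls is not a lack of change. The summed neutrophil list was 875 to 897 CPM in control and 841 to 1211 with adult platelets, with 1 gene called in each direction of 21. NK cell transcripts summed to 41.6 to 58.5 CPM in control and 33.0 to 39.7 with adult platelets, without overlap (exact permutation p = 0.1, two-sided, the smallest that 3 against 3 allows). T cell transcripts summed to 14.7 to 16.7 CPM in control and 22.0 to 40.1 with adult platelets, also without overlap and with the same p, and 2 of 9 tested genes rose. These were Lat, an adaptor that platelets also use below the collagen receptor, from 1.18, 0.945 and 0.81 to 4.83, 3.03 and 5.66 CPM, and Il7r, the IL-7 receptor, from 7.1, 8.16 and 9.55 to 11.3, 14.4 and 23.5. Il7r missed the threshold once control replicate 2 was left out (adjusted p = 0.0516). Of the endothelial and stromal list 1 of 8 tested genes, Kdr, a VEGF receptor, rose, to 0.467, 0.629 and 0.712 CPM.

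Transcripts that platelets and monocytes share cannot be assigned by their level in control. Of 32 such genes that control monocytes expressed, 19 rose and 1, Rgs2, fell (not past the threshold with control replicate 2 left out, adjusted p = 0.0561), with a median log2 fold change of 0.29, against 15.8% higher, 14.9% lower and a median of 0.00 over all expressed genes. Tmsb4x, thymosin beta 4, which sequesters actin monomers, rose from 1573, 1537 and 1564 to 3763, 2953 and 3479 CPM (1.12 ± 0.09, adjusted p = 4.13e-05). Actb, beta actin, rose from 3989.9, 4055 and 4159.7 to 7134, 7334 and 6471 CPM (0.78 ± 0.07, adjusted p = 9.92e-05). The groups were apart in both, and adult platelet replicate 2 was the lowest for Tmsb4x and the highest for Actb. Per kilobase of exon, the difference of the group means was 1342 CPM for Tmsb4x and 1087 for Actb, against 268 for Gng11, 217 for Nrgn and 207 for Ppbp. Cd9, a tetraspanin of platelets and of monocytes, rose from 234, 201 and 197 to 495, 354 and 535 CPM, with a replicate 2 ratio of 0.689. Rgs18, a regulator of G protein signalling in platelets and myeloid cells, rose from 34.3, 33.7 and 32.4 to 66.5, 66.2 and 90.6 CPM, with a ratio of 0.843. B2m, the light chain of MHC class I, rose by 0.39 ± 0.06 on the log2 scale, with a ratio of 0.964.

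Among expressed genes that rose at least 2-fold, 36 had a replicate 2 ratio under 0.75, like the platelet sum. Some encode platelet proteins. Itga2b, the integrin alpha IIb of the fibrinogen receptor, was at 11.9, 6.54 and 5.45 CPM in control and 192, 100.0 and 196 with adult platelets (ratio 0.516). Itgb3, its beta chain, was at 10.9, 17.1 and 16.1 and 43.5, 26.9 and 44.2 CPM (ratio 0.613), and Itga6, the laminin receptor subunit, at 17.5, 15.6 and 14.1 and 57.6, 42.8 and 80.4 (ratio 0.62). Tsc22d1, a leucine zipper protein of TGF-beta signalling, showed the second largest rise among expressed genes, after Itga2b, from 17.8, 18.9 and 20.03 to 251, 184 and 303 CPM (3.70 ± 0.18, ratio 0.663). H2bc4, a histone gene, had a ratio of 0.54, and Arhgap10, a GTPase activating protein, of 0.653. Others of the 36 are not specific to platelets. Fcgr1, the high-affinity IgG receptor, rose from 39.7, 29.1 and 33.7 to 83.5, 51.5 and 70.2 CPM (ratio 0.671), and Dusp6, the ERK phosphatase, from 45.2, 34.5 and 36.2 to 132, 67.9 and 117 (ratio 0.545). Dusp6 missed the threshold when adult platelet replicate 1 or 3, or control replicate 2 or 3, was dropped from the fit (adjusted p = 0.0597 to 0.0965). Genes with a ratio under 0.75 thus included known platelet genes and genes known from monocytes, such as Fcgr1.

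The other 59 of the 95 had a ratio of 0.75 or more. Mitochondrial ribosomal RNA was among them. mt-Rnr2, the large ribosomal RNA of mitochondria, which platelets also contain, was at 678, 826 and 848 CPM in control and 6123, 5319 and 6296 with adult platelets (2.92 ± 0.13, ratio 0.857), and both mitochondrial ribosomal RNAs together went from 0.148% to 0.961% of counts. Stab1, a scavenger receptor of macrophages and sinusoidal endothelium, was at 13.6, 10.7 and 13.7 CPM in control and 148, 138 and 107 with adult platelets (3.37 ± 0.25, adjusted p = 3.26e-05), with replicate 3 the lowest. Adam8, a metalloprotease of myeloid cells, rose from 77.6, 105 and 117 to 349, 349 and 399.5 CPM (1.87 ± 0.13, adjusted p = 2.33e-05). Carmil1, which uncaps actin filaments, rose from 21.4, 24.7 and 31.8 to 105, 106 and 131 CPM. The groups did not overlap for any of these 3 genes. Il21r, the IL-21 receptor, rose from 6.6, 5.83 and 5.42 to 18, 18.4 and 18.7 CPM, and Jun, the AP-1 subunit, from 25.5, 21.8 and 26 to 62.1, 66 and 82.9. P2ry6, the UDP receptor, rose from 7.65, 9.63 and 10.4 to 43.8, 38.2 and 51.9 CPM, and Slc7a8, an amino acid transporter, from 14.8, 13.8 and 14.6 to 55.8, 50.1 and 56.9. In others of the 59 replicate 2 was the highest library. Gpr84, a receptor for medium-chain fatty acids, was at 8.48, 6.27 and 10.8 CPM in control and 31, 68.5 and 29.4 with adult platelets (2.34 ± 0.34, adjusted p = 0.00143; ratio 2.27), and Hivep3, a zinc finger protein, at 13.6, 15 and 16.8 and 30.3, 73.3 and 25.1. Mmp14, the membrane type matrix protease, went from 18.6, 12.4 and 19 to 66.3, 72.7 and 31.8, with replicate 3 far below the others. Adult platelet replicate 2 was the highest library of the comparison for each of these 3 genes. Hivep3 did not pass with control replicate 1 or 2 left out (adjusted p = 0.0507 and 0.0585).

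**Figure D4:**
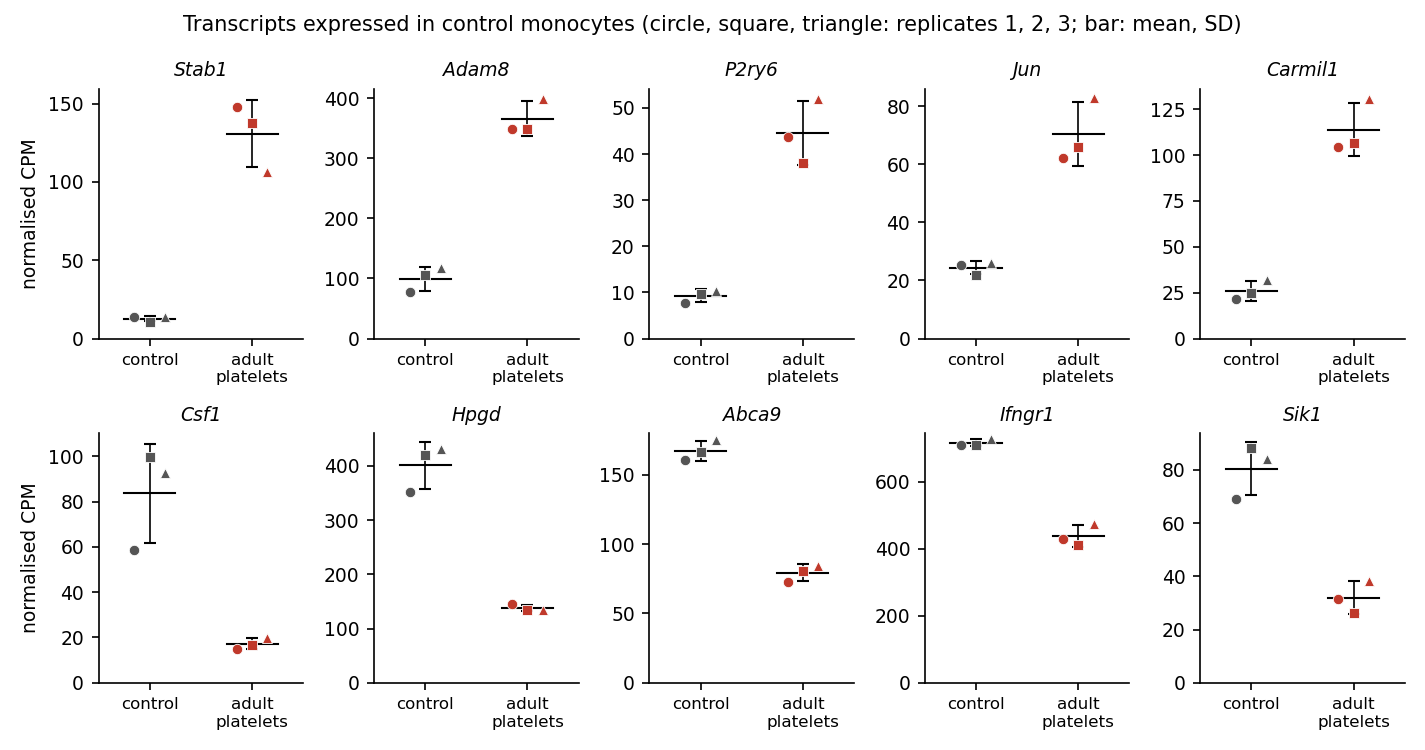
Normalised CPM (vertical, linear from 0) of 10 transcripts expressed in control, in the 3 control (grey) and 3 adult platelet (red) libraries; symbols mark replicates and bars the mean with SD. Stab1, Adam8, P2ry6, Jun and Carmil1 are higher and Csf1, Hpgd, Abca9, Ifngr1 and Sik1 lower with adult platelets, with no overlap between the groups in any panel.

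Genes expressed in control also fell. Levels are relative to a library that also holds platelet RNA, partly from genes of this same class. The part of that RNA in the falls was not tested. Expressed genes together held 97.8% of counts in control and 96.8% with adult platelets, and their median log2 fold change was 0.00. Csf1, the macrophage growth factor M-CSF, fell from 58.6, 99.6 and 92.8 to 15.1, 16.7 and 19.8 CPM (-2.28 ± 0.27, adjusted p = 0.000455). Hpgd, the enzyme that inactivates prostaglandins, fell from 352, 421 and 431 to 145, 135 and 134 CPM (-1.54 ± 0.09, adjusted p = 8.42e-06). The groups did not overlap for either gene, and control replicate 1 was the lowest control library for both genes. Frmd4b, a FERM domain protein, fell from 14, 16.9 and 18.4 to 3.33, 3.58 and 3.94 CPM, and Kctd12b from 11.2, 14.9 and 16.1 to 4.23, 5.09 and 4.12. The orphan nuclear receptor genes of the early response fell, Nr4a2 from 59.5, 101 and 111 to 21.8, 31.2 and 39.6 CPM and Nr4a3 from 8.88, 15.4 and 23.3 to 4.36, 7.9 and 5.43. Control replicate 3 was the highest library of all 6 in both cases. Nr4a3 missed the threshold when adult platelet replicate 1 or 3, or control replicate 2 or 3, was left out (adjusted p = 0.0584 to 0.0820). Sik1, a salt-inducible kinase, fell from 69.2, 88.3 and 84.1 to 31.3, 26.3 and 38.4 CPM (-1.33 ± 0.15), and Ahr, the aryl hydrocarbon receptor, from 37.8, 42.9 and 48.8 to 12.2, 16.4 and 23.1 (-1.32 ± 0.28). B3gnt5, a glycosphingolipid synthase, fell from 84.1, 127 and 129 to 31.8, 37.6 and 58.6 CPM. Jag2, a Notch ligand, went from 4.48, 6.61 and 5.52 to 1.93, 2.26 and 1.96 CPM, Kbtbd11 from 6.25, 6.12 and 6.23 to 2.02, 2.09 and 2.79 and Nynrin from 5.3, 6.3 and 5.55 to 1.59, 2.03 and 2.11. Among low genes Foxq1, a forkhead factor, fell from 2.4, 3.46 and 2.94 to 0.903, 0.687 and 0.385 CPM, Lamp3, a lysosomal membrane protein, from 0.925, 2.26 and 2.33 to 0.374, 0.515 and 0.297, and Hepacam2 from 1.23, 2.05 and 1.92 to 0.374, 0.372 and 0.652.

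Lists of monocyte functions were counted over members that control monocytes expressed, since these transcripts were present without added platelets. Read against 15.8% higher and 14.9% lower over all expressed genes, several lists were called almost entirely in 1 direction. Sterol synthesis and uptake had 16 of 21 higher and none lower, aminoacyl-tRNA synthetases 13 of 20, cell cycle and DNA replication genes 12 of 26, ATF4 targets 11 of 25, ribosome biogenesis factors 10 of 25, and none of these lists had a fall. Genes of KLF and FOXO factors and of quiescence had none higher and 7 of 22 lower. Lysosomal genes went both ways, with 6 higher and 6 lower of 29, as did monocyte identity genes, with 6 and 5 of 30. ER chaperones (5 of 23 higher) and nuclear-encoded respiratory chain subunits (7 of 30) also had none lower, with fewer members called. Glycolysis and HIF targets had 5 higher and 2 lower of 23. No test of the lists as sets was run, and their members are not independent of one another.

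**Figure D5:**
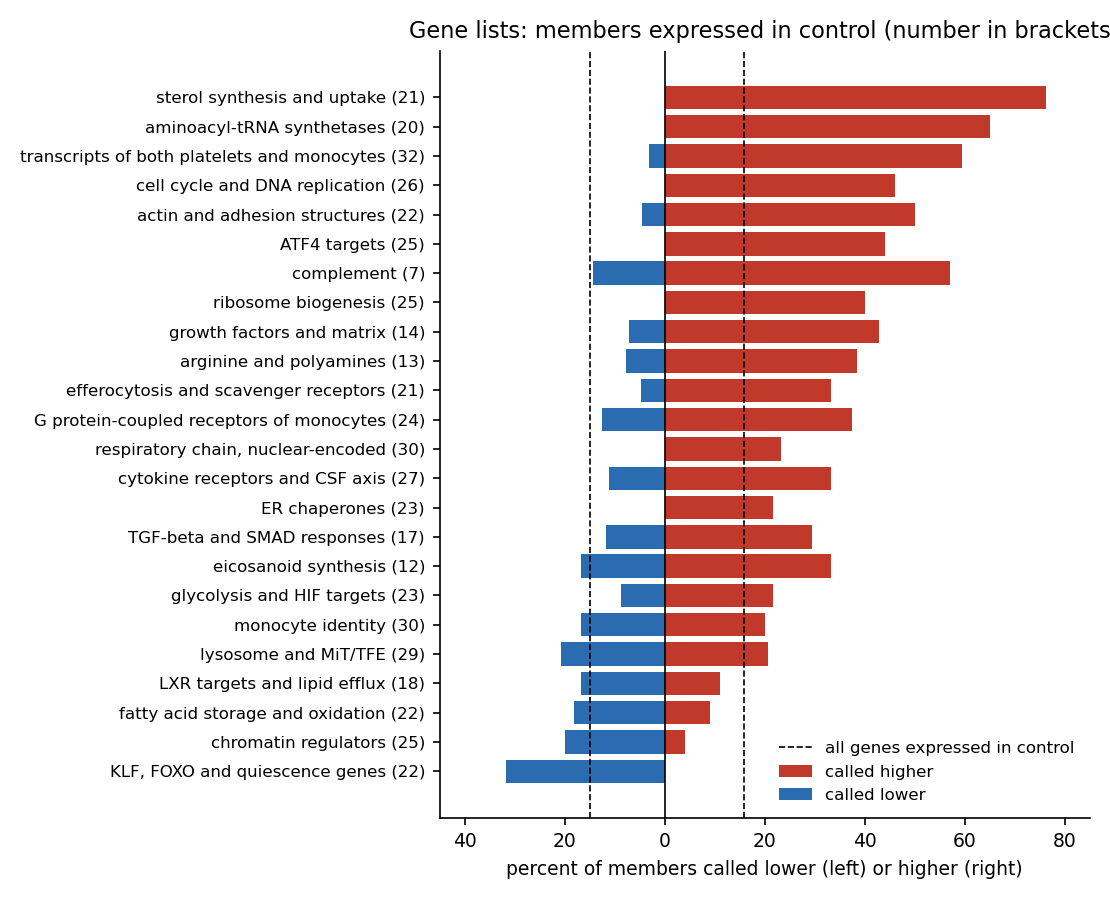
Percent of the members expressed in control that were called higher (red, right) or lower (blue, left) with adult platelets, for gene lists with at least 7 such members (number in brackets), ordered by the difference. Dashed lines mark 15.8% higher and 14.9% lower, the shares over all expressed genes; sterol synthesis and uptake has 16 of 21 higher at the top, and KLF, FOXO and quiescence genes 7 of 22 lower at the bottom.

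Sterol genes span the pathway from HMG-CoA to cholesterol. Sqle, squalene epoxidase, rose from 43.9, 27.1 and 31.8 to 127, 90.02 and 68.6 CPM (1.47 ± 0.23, adjusted p = 0.00214), and Hsd17b7, which acts in the removal of the C4 methyl groups, from 7.78, 4.99 and 5.62 to 23.7, 19.6 and 14.1 (1.64 ± 0.21, adjusted p = 0.000699). Replicate 1 was the highest library of its group for both genes, in control and with adult platelets. The 5 expressed members that did not pass were Mvd, Lss, Nsdhl, Ebp and Dhcr7, with log2 fold changes of 0.19 ± 0.14, 0.22 ± 0.21, 0.34 ± 0.16, -0.09 ± 0.07 and 0.03 ± 0.17. SREBP2, the transcription factor of these genes, binds the sterol regulatory element. Its short form TCACNCCAC was searched on both strands of promoter stretches of 300 bases (RefSeq, GRCm38.p6), which were found for 16 of the list's genes. Of these 1 held it, the promoter of Hmgcs1, HMG-CoA synthase (129, 101 and 110.0 CPM in control, 254, 227 and 177 with adult platelets), against 1.44% of 27025 promoters in the table. The stretch around it is shown because it carries the match in a called gene, on the forward strand at chr13:119690189-119690247, with the motif in capitals.
Hmgcs1: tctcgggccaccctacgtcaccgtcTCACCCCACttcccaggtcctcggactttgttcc
A match is a description of letters, and the lack of one in the other 15 says only that these letters are not in those windows.

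ATF4 is a transcription factor translated when amino acids are short or the ER is stressed, and its targets supply amino acids and charged tRNA. Asns, asparagine synthetase, rose from 78.3, 75.8 and 77.3 to 145, 149 and 134 CPM (0.88 ± 0.06, adjusted p = 1.59e-05). The libraries of each group were within a narrow range and did not overlap. Ddit4, an inhibitor of mTORC1, rose from 8.88, 9 and 9.24 to 15.3, 16.2 and 17.6 CPM (0.86 ± 0.06), Atf5 by 0.56 ± 0.07 and Atf4 itself by 0.28 ± 0.05 on the log2 scale. Slc7a11, the cystine transporter, rose from 46.9, 71.4 and 97.5 to 127, 227 and 113 CPM (1.12 ± 0.33, adjusted p = 0.0363), with replicate 2 far above the others. This call was lost with only the 6 libraries compared (adjusted p = 0.0504) and without adult platelet replicate 2, control replicate 1, control replicate 2 or P7 platelet replicate 2 (adjusted p = 0.0527 to 0.108). Not every stress target moved: Ddit3, the death-associated factor CHOP, was at 14.5, 15.3 and 15.4 CPM in control and 14.2, 12.8 and 16.2 with adult platelets (adjusted p = 0.636). Of the tRNA synthetases, Dars, for aspartate, rose from 53.2, 55.6 and 55.6 to 72.7, 72.4 and 73.1 CPM (0.41 ± 0.04, adjusted p = 0.000243), Gars, for glycine, from 168, 174 and 165 to 205, 231 and 219 (0.37 ± 0.06), Aars, for alanine, from 289.7, 318 and 311 to 360.4, 405 and 382 (0.32 ± 0.08) and Tars, for threonine, from 104, 113 and 109 to 126, 145 and 133 (0.31 ± 0.07). Aars did not pass with control replicate 1 left out (adjusted p = 0.0537). Qars, for glutamine, was among the 7 that did not pass (-0.10 ± 0.06). These changes were small beside the platelet transcripts, and replicate 2 ratios were 1.07 for Asns, 0.994 for Dars and 1.09 for Gars.

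The composite element that ATF4 binds with C/EBP partners has the core TGATGNAA, which was searched in the same promoter stretches on both strands after these values had been seen. It was found in 7 of 24 ATF4 list promoters (29.2%) and 5 of 13 tRNA synthetase promoters (38.5%), against 4.51% of all 27025 promoters and 2.79% of those of genes expressed in control. Among members called higher it was in 3 of 9 ATF4 list promoters (33.3%) and 4 of 7 tRNA synthetase promoters (57.1%). The ATF4 list was made of known targets, so these shares describe the lists and not the change with platelets. A match upstream of the start is shown for each of 5 called genes, with the motif in capitals. Matches downstream of the start, in the called genes Trib3, Yars and Aars, are not shown. The Trib3 call (adjusted p = 0.0343) did not hold with only the 6 libraries compared (adjusted p = 0.0533), nor in 6 of the 9 fits without 1 library, all except those without adult platelet replicate 1 or P7 platelet replicate 1 or 3 (adjusted p = 0.0509 to 0.0926). They are printed 5′ to 3′ on the strand of the gene, so that a match on the other strand reads as the reverse complement of the core. The positions in GRCm38.p6 are chr6:7693210-7693257 for Asns (reverse strand), chr3:50443647-50443704 for Slc7a11 (reverse), chr8:111033705-111033762 for Aars (forward), chr6:55037946-55038000 for Gars (forward) and chr15:11399659-11399698 for Tars (reverse).
Asns: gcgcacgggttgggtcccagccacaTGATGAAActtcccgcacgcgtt
Slc7a11: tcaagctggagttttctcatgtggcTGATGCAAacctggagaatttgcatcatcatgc
Aars: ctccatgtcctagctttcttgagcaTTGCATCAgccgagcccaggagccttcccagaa
Gars: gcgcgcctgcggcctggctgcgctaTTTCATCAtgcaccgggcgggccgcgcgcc
Tars: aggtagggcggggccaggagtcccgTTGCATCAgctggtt
The Slc7a11 stretch also holds an opposite match, in lower case. Chac1, Nupr1, Pck2 and Slc1a4 of the ATF4 list and Iars of the tRNA synthetase list held a match too and did not pass. Chac1 passed with DESeq2 (adjusted p = 0.0305), with no filter and without adult platelet replicate 1, and Nupr1 with a term for high Igkc (adjusted p = 0.0421) and without adult platelet replicate 3.

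Some surface receptors of monocytes rose and others fell. Of 24 expressed G protein-coupled receptors 9 rose and 3 fell, against 15.8% higher and 14.9% lower over all expressed genes. C3ar1, the receptor for complement C3a, rose from 65.8, 59.4 and 74.6 to 144, 139.5 and 174 CPM (1.20 ± 0.12), and Ptafr, the receptor for platelet-activating factor, from 167, 166 and 198 to 349.8, 445 and 343 (1.10 ± 0.11). P2rx7, an ATP-gated channel that belongs to the nucleotide receptors counted with this list, fell from 29.6, 29.2 and 31.4 to 15.6, 18.9 and 19.6 CPM (-0.74 ± 0.13), and S1pr4, a sphingosine phosphate receptor, from 20.3, 21.9 and 19.8 to 13.4, 11 and 14.9 (-0.66 ± 0.14). Of 27 expressed cytokine receptors and CSF genes 9 rose and 3 fell. In neither list were falls more frequent than over all expressed genes. Ifngr1, the interferon gamma receptor chain, fell from 711, 710.2 and 728 to 428, 412 and 473 CPM (-0.71 ± 0.06, adjusted p = 6.41e-05), whereas Ifnar1, of the type I interferon receptor, rose from 253, 269 and 281 to 364, 405 and 355 (0.48 ± 0.07). Msr1, scavenger receptor A, rose from 296, 301 and 334 to 533, 604 and 562 CPM (0.87 ± 0.06), and Scarb2, the lysosomal LIMP-2, fell from 204, 219.7 and 211 to 157, 153 and 170.0 (-0.40 ± 0.06). Monocyte identity genes that fell included Spn, CD43, with a log2 fold change of -0.35 ± 0.05, and Ace, angiotensin-converting enzyme, from 28.8, 41.8 and 47.9 to 21.8, 24.2 and 17.7 CPM.

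Lipid, arginine and quiescence genes gave further measured shifts. Abca9, a lipid transporter of the ABC family, fell from 160.5, 166 and 175 to 72.8, 80.8 and 84.6 CPM (-1.07 ± 0.07, adjusted p = 9.75e-06), and Apoe, apolipoprotein E, from 2012, 2190.2 and 2307 to 1599, 1333 and 1389 (-0.59 ± 0.08). Nr1h3, the oxysterol receptor LXR alpha, rose from 13.9, 15.8 and 16.3 to 27.6, 27.5 and 22.6 CPM (0.76 ± 0.09). LXR targets as a list had 2 higher and 3 lower of 18, against 15.8% higher and 14.9% lower over all expressed genes. Dgat2, which makes triglycerides, rose from 29.4, 34.8 and 40.2 to 74.1, 96.6 and 67.4 CPM (1.19 ± 0.16), and Acadm, which oxidises medium-chain fatty acids, fell from 53.1, 53 and 48.2 to 39, 37.2 and 40.7 (-0.40 ± 0.07). Odc1, ornithine decarboxylase, which uses the product of arginase for polyamines, rose from 17.5, 15.7 and 16.6 to 47.1, 39 and 55.7 CPM (1.51 ± 0.11, adjusted p = 3.26e-05), and Ass1, which regenerates arginine, from 51.1, 44.1 and 47 to 98.5, 109.5 and 77.2 (adjusted p = 0.000408). Klf2, a factor of quiescence, fell from 97.9, 90.7 and 81.5 to 73.6, 59.6 and 43.9 CPM (-0.61 ± 0.16), Fbxo32, a FOXO target, from 16.9, 19.5 and 17.7 to 11.8, 8.81 and 11.6 (-0.75 ± 0.13), and Sesn3, sestrin 3, from 17.1, 16.7 and 18.4 to 11.7, 12.2 and 12.3 (-0.53 ± 0.09). Klf2 did not pass with control replicate 1 or 2 left out (adjusted p = 0.0584 and 0.0609). Smarca2, an ATPase of chromatin remodelling, fell from 60.9, 60.9 and 64.1 to 34.9, 38.1 and 41.9 CPM (-0.69 ± 0.06).

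Libraries of monocytes kept with P7 platelets gave a test of whether a value differed between both groups kept with platelets. The platelet sum was 3390, 2897 and 2953 CPM with P7 platelets, against 2446, 1581 and 2708 with adult platelets. Erythroid genes not expressed in control summed to 61667, 49325 and 56303 CPM, against 1769, 650 and 513. The kind of platelet and the amount and purity of what was added therefore cannot be told apart. Differences are P7 platelets minus adult platelets in log2, in the same fit, in which 39.6% of all genes tested were called. Nrgn (-0.06 ± 0.23), Gng11 (-0.31 ± 0.20), Pf4 (0.31 ± 0.18) and Fhl1 (-0.05 ± 0.19) did not pass (adjusted p = 0.858, 0.267, 0.214 and 0.873), so that no difference between these groups was detectable at this spread. Ppbp (-1.96 ± 0.16, adjusted p = 4.60e-05) and P2ry12 (-1.38 ± 0.20, adjusted p = 0.000774) were lower with P7 platelets, and Gp9 (1.63 ± 0.22, adjusted p = 0.000557) and Myl9 (1.38 ± 0.20, adjusted p = 0.0008) were higher. Hbb-bs was higher with P7 platelets by 5.86 ± 0.51 (adjusted p = 6.86e-05). Among the other genes described above, Arg1 (-1.81 ± 0.30, adjusted p = 0.00159) and Dusp6 (-1.91 ± 0.41, adjusted p = 0.00565) were lower with P7 than with adult platelets. Gpr84 (1.95 ± 0.32, adjusted p = 0.00133) and Csf1 (1.26 ± 0.27, adjusted p = 0.00505) were higher, and Hpgd was lower still (-0.87 ± 0.09, adjusted p = 0.000174). Stab1 (-0.07 ± 0.22), P2ry6 (-0.27 ± 0.17), Il21r (-0.06 ± 0.13) and Jun (0.20 ± 0.11) did not pass (adjusted p = 0.828, 0.25, 0.725 and 0.189).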

How the data were processed

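RNA was sequenced from monocytes of 3 groups with 3 libraries each, grouped by the labels. Raw counts per gene symbol were deposited by the authors. Tools listed, per the submitters' processing notes, were Salmon 1.3.0, featureCounts of Subread 2.0.1, the aligner STAR 2.7.6a and fastp 0.20.1. Which build, annotation and strand option the counting used is not given in the sources used here. Exon lengths came from GENCODE M21, which holds 53292 of 55367 symbols.

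Genes with enough counts in a group (edgeR filterByExpr, minimum count 10) were scaled by TMM and fitted over all 9 libraries with edgeR 4.0.16 (quasi-likelihood, 6 residual degrees of freedom, R 4.3.3). P-values were adjusted by Benjamini-Hochberg over 13707 genes. Alternatives used DESeq2 1.42.0, limma-voom (limma 3.58.1), other scalings and filters, a replicate block, other class limits and fewer libraries. The fit was tested on simulated data.

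The comparison, gene lists and classes were chosen with earlier results of these data known. Genes named were the most abundant near-absent, the most changed low and expressed, up to 4 per list by smallest p, and a preset list. Other named genes, such as the neighbours of the class limits and list members shown for contrast, were chosen after their values were seen. So were the replicate 2 ratio, its limit of 0.75 and the ATF4 motif. Counts of adult platelet libraries were not corrected for platelet RNA. Some genes are not reported here.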

Additional observations from a re-analysis of the deposited data

How the results depend on the processing

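Of 3617 genes called, leaving out 1 library gave 2031 to 3774, with 1114 to 2011 higher and 917 to 1763 lower. For expressed genes the range was 745 to 1497 higher and 805 to 1467 lower, for low genes 130 to 220 higher and 104 to 270 lower, and for near-absent genes 239 to 294 higher. Expressed genes changed at least 2-fold numbered 83 to 101 higher and 51 to 79 lower. The lowest values came without control replicate 2, though each of these fits left out 1 library. A chi-square per degree of freedom compared pairs of libraries, with larger values for less alike pairs. It was 4.81 for control replicates 2 and 3, against 18.71 and 25.26 for control replicate 1 with replicates 2 and 3. Pairs of adult platelet libraries had 32.11 to 39.78. The cause of the weight of control replicate 2 was not tested. With classes set by control replicate 2 alone, left out of the fit, 2031 genes were called (1114 higher, 917 lower), with 737 higher and 811 lower among expressed and 137 higher and 94 lower among low genes. With control replicate 3 alone the numbers were 2207 (1194 higher, 1013 lower), 799 and 880 among expressed, and 126 lower among low genes. Low genes called lower numbered 167 with no filter, 112 with class limits of 0.2 and 2 CPM, and 423 with limits of 1 and 10 CPM, which move genes between classes. Near-absent genes called higher numbered 85 with a mean count of at least 50, since fewer were tested. The share of counts was 0.207% to 0.269% for platelet, 0.0600% to 0.125% for erythroid and 0.311% to 0.385% for near-absent transcripts when 1 adult platelet library was left out.

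With the replicate number as a block 4228 genes were called (2247 higher, 1981 lower), within 1.5 times the main count. Same-numbered libraries of the groups compared had correlations of 0.58, 0.30 and -0.06 in their deviations from the group means. Adult platelet replicate 2 correlated best with control replicate 3 (0.49) and replicate 3 with control replicate 2 (0.09), so not every library matched its own number, and the numbers were not taken as pairs. Under the block Mvd (0.19, adjusted p = 0.0376) and Nsdhl (0.33, adjusted p = 0.00744) were called by edgeR. With a term for high Igkc 4213 genes were called.

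Of 144 genes named, 126 were called, and 12 of these lost the call under at least 1 of 19 alternatives. The sign changed for 10 genes, of which 0 were called. Leaving out 1 library gave log2 fold changes of -0.16 to 0.014 for Ddit3, -0.15 to 0.16 for Dhcr7, -0.043 to 0.14 for F13a1, -0.26 to 0.55 for F2rl3, -0.18 to 1.69 for Igkc, -0.041 to 0.40 for Lss, -0.10 to 0.24 for P2ry1, -0.15 to 0.58 for Selp, -0.54 to 0.079 for Thbs1 and -0.045 to 0.029 for Tln1. With the Igkc term, values were -0.068 for Dhcr7, -0.049 for F2rl3, -0.070 for Igkc and 0.023 for Tln1. Dhcr7 was at -0.0017 with upper-quartile factors, F2rl3 at -0.015 with limma-voom and Tln1 at 0.00075 with only the 6 libraries compared. Counting depth limits near-absent genes most, since their control values rest on few counts.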
